A study of Mus musculus with 6 samples.

Results

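The Trbj1 cluster is the upstream of the 2 groups of joining (J) gene segments in the mouse T-cell receptor β (TCR-β) locus. Its sequences were taken from 6 TCR-β libraries of CD4+ T cells, prepared from the UUO kidney and the spleen of each of 3 mice with fibrosis-memory. A clone was a member when the first J gene that the authors' software assigned to it was a Trbj1 gene, and clones that shared the V gene, the J gene and the nucleotide sequence of the CDR3 were merged into 1 clonotype. This gave 122090 Trbj1 clonotypes of 352074 in all, summed over the 6 libraries. The 6 genes Trbj1-1 to Trbj1-6 (TRBJ1-1, TRBJ1-2, TRBJ1-3, TRBJ1-4, TRBJ1-5 and TRBJ1-6 in the files) were found in every library, whereas Trbj1-7 was assigned to a single non-coding clonotype of the spleen of mouse 2 and is not considered further.

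The mice were young adult female C57BL/6 wildtype animals by the labels and the study's methods. In all 3, the right ureter was clipped on day 0 and released on day 6 (reversible unilateral ureteral obstruction, RUUO). The left ureter was tied on day 17 (UUO), and the organs were harvested on day 22. The kidney libraries come from the left UUO kidney, and kidney and spleen with the same number come from the same mouse. CD4+ T cells were enriched with magnetic beads, in 2 steps for the kidney and in 1 step for the spleen, and then sorted by flow cytometry. The files hold TCR-β sequences alone, so that the CD4+ label was not checked against other genes. No library of a sham-operated or untreated mouse was analysed here, so every comparison lies within these 3 animals.

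A TCR-β gene is assembled in the developing T cell from a V, a D and a J segment, and the bases around the junctions form the third complementarity-determining region (CDR3), which contacts the antigenic peptide. During joining, bases are trimmed from the J end, short palindromic (P) bases can remain from the opened hairpin, and non-templated bases are added. The J segment supplies the end of the CDR3 up to a conserved phenylalanine. A junction that loses the reading frame or gains a stop codon encodes no receptor. Such a non-coding rearrangement can persist in a T cell whose other allele is productive, and so it was not itself selected through a receptor.

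In the GRCm38 annotation the Trbj1 genes lie on chromosome 6, each as a segment of 46 (Trbj1-7) to 53 bases (Trbj1-6) with no intron of its own. Trbj1-1 spans chr6:41533864-41533911 and Trbj1-2 spans chr6:41534001-41534048. Trbj1-3 is at chr6:41534323-41534372, Trbj1-4 at chr6:41534811-41534861, Trbj1-5 at chr6:41535084-41535133 and Trbj1-6 at chr6:41535554-41535606. Trbd1 starts upstream of them at position 41533201, and Trbc1, Trbd2 and the Trbj2 genes follow downstream, with Trbd2 starting at position 41542163. The part of each Trbj1 gene that enters the CDR3 when nothing is trimmed was read from untrimmed spleen clonotypes in the deposited files, 5′ to 3′, and is shown because usage, length and trimming below all concern these bases. The capitals mark the codon of the conserved phenylalanine, and between 90.4% (Trbj1-1) and 98.4% (Trbj1-3) of the untrimmed spleen clonotypes of each gene ended in exactly these bases.
Trbj1-1: caaacacagaagtcttcTTT
Trbj1-2: caaactccgactacaccTTC
Trbj1-3: ttctggaaatacgctctatTTT
Trbj1-4: tttccaacgaaagattatttTTC
Trbj1-5: taacaaccaggctccgcttTTT
Trbj1-6: ttcctataattcgcccctctacTTT
The germline contribution therefore ranged from 20 bases in Trbj1-1 and Trbj1-2 to 25 bases in Trbj1-6.

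The libraries differed widely in depth. Coding clonotypes held 693 to 1248 UMIs in the kidneys and 97735 to 224811 in the spleens. A UMI (unique molecular identifier) tags 1 mRNA molecule, so that PCR copies are counted once. Each UMI rested on 465 to 784 reads in the kidney libraries and on 8.54 to 21.2 reads in the spleen libraries. Trbj1 sequences accounted for 221 to 474 coding UMIs and 156 to 270 coding clonotypes of a kidney, and for 31528 to 78515 UMIs and 25742 to 49816 clonotypes of a spleen. A J gene with 0 UMIs could still have a share of up to 0.433% in the smallest kidney library (3 counts, counting error only). UMIs count mRNA, so that more cells of a clonotype and more TCR-β mRNA per cell cannot be told apart, and shares are therefore given by UMIs and by distinct clonotypes.

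The first question was whether kidney and spleen CD4+ T cells used the Trbj1 cluster to the same extent. Trbj1 genes made up 35.2%, 35.5% and 33.0% of the coding clonotypes in kidneys 1, 2 and 3, and 34.7%, 35.5% and 33.0% in the spleens of these mice. Each kidney lay close to the spleen of its own mouse, and the 2 groups overlapped. The exact 95% intervals of kidneys 1, 2 and 3 (30.9 to 39.6, 32.1 to 39.0 and 28.8 to 37.4, counting error only) each held all 3 spleen values. Likeness to the own spleen could therefore not be told from likeness to the others. The kidney exceeded the spleen by 0.199 percentage points ± 1.09 (SE of the difference, n = 3 per organ, exact permutation test, two-sided, p = 0.7, where 0.1 is the smallest p that 3 against 3 libraries allow). Within the mice the kidney was higher in all 3 pairs, by 0.199 percentage points ± 0.291 (SD, n = 3 mice, exact sign-flip permutation test, p = 0.25, and 3 pairs cannot give less), but in 2 of 3 pairs with a mean of -0.332 at a minimum of 2 UMIs per clonotype. By UMIs the share was 31.6%, 38.0% and 31.9% in kidneys 1, 2 and 3, against spleen values of 34.1%, 34.9% and 32.3%. The kidney of mouse 2 was the only one above its own spleen. The mean difference of 0.051 percentage points ± 2.23 (SE, n = 3 per organ, exact permutation test, p = 1.0) became -1.45 without mouse 2.

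By clonotypes, the order of the 6 genes was the same in the means of both organs. By UMIs, Trbj1-5 (4.20% ± 2.16, SD, n = 3) stood above Trbj1-6 (3.49% ± 0.534) in the kidney means, with overlapping ranges, and below it in the spleen means, with 2.67% and 3.20%. Among coding spleen clonotypes Trbj1-1 led with 10.2% ± 0.255 (SD, n = 3), followed by Trbj1-4 with 7.17% ± 0.191, Trbj1-3 with 5.56% ± 0.238, Trbj1-2 with 5.31% ± 0.295, Trbj1-6 with 3.26% ± 0.190 and Trbj1-5 with 2.86% ± 0.137. The ranges of Trbj1-3 and Trbj1-2 overlapped between mice, although Trbj1-3 exceeded Trbj1-2 within each spleen, and no other neighbours in this order overlapped. In the kidney the means ran from 10.4% ± 0.107 (SD, n = 3) for Trbj1-1 to 3.42% ± 1.33 for Trbj1-5, and except for Trbj1-1 the ranges of neighbouring genes overlapped. The kidney ranges were wider than the spleen ranges except for Trbj1-1. Between 16 and 79 clonotypes stood behind each kidney value and at least 2148 behind each spleen value. For Trbj1-3 the exact 95% intervals (counting error only) of kidneys 2 (6.19 to 10.2) and 3 (1.95 to 5.44) did not overlap. The source of the kidney spread was not tested.

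**Figure D1:**
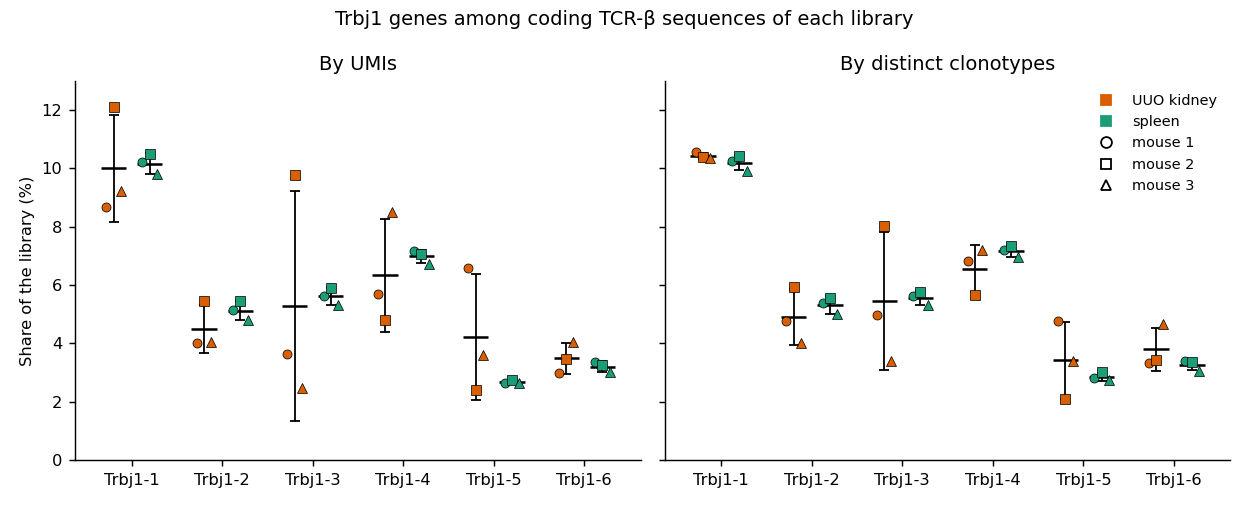
Share of each Trbj1 gene among the coding UMIs (left) and the coding clonotypes (right) of each library, in percent, for the UUO kidney and the spleen of 3 mice. Each symbol is 1 library, horizontal lines are means and error bars are SD (n = 3). The spleens lie close together for every gene, whereas kidney values spread from 2.45% to 9.78% for Trbj1-3 by UMIs.

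No Trbj gene passed the test between the organs. In edgeR's quasi-likelihood test 0 of 12 Trbj genes (0%) had an adjusted p under 0.05, either by UMIs or by clonotypes. DESeq2 called 0 as well. At an unadjusted p under 0.05 edgeR had 0 genes in both tests, and DESeq2 had 1 by UMIs, a Trbj1 gene, and 0 by clonotypes. Without mouse 2, edgeR had 4 genes by UMIs at an unadjusted p under 0.05, 2 of them in the Trbj1 cluster, and 0 after adjustment. By UMIs the log2 fold change of kidney over spleen of 5 of the 6 Trbj1 genes lay between -0.17 and 0.12. The exception was Trbj1-5 with 0.61 ± 0.32 (SE, edgeR, adjusted p = 0.709), whose approximate 95% interval ran from -0.01 to 1.23. By clonotypes the 6 values lay between -0.16 and 0.19, with adjusted p = 0.828 for each. The intervals are wide. For Trbj1-3 by UMIs the interval ran from -0.81 to 0.82. Differences within it in either direction could not be detected in these libraries. The exact 95% interval of the UMI share of this gene in kidney 2 lay above those of kidneys 1 and 3, without overlap. Such intervals understate counting error, because UMIs of 1 clonotype are not independent. By clonotypes the interval of kidney 2 (6.19 to 10.2) overlapped that of kidney 1 (3.21 to 7.30). It did not overlap that of kidney 3 (1.95 to 5.44).

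By UMIs, every kidney lay outside the range of the 3 spleens for each of the 6 genes. The exact 95% interval of the kidney UMI share excluded the share in the own spleen for Trbj1-3 in all 3 kidneys. It also did so for Trbj1-5 in kidney 1 and for Trbj1-4 in kidney 2. These intervals cover counting error only and are too narrow, since UMIs of 1 clonotype are not independent. By clonotypes the interval held the own spleen's share for Trbj1-3 in kidneys 1 (3.21 to 7.30) and 3 (1.95 to 5.44). It also held it for Trbj1-4 in kidney 2 (4.12 to 7.55). It still excluded it for Trbj1-3 in kidney 2 (6.19 to 10.2) and Trbj1-5 in kidney 1 (3.04 to 7.06). Trbj1-3 made up 3.62%, 9.78% and 2.45% of the UMIs in kidneys 1, 2 and 3, against 5.62%, 5.91% and 5.31% in the spleens. Kidney 2 was above all spleens and kidneys 1 and 3 were below them. Trbj1-5 made up 6.60%, 2.40% and 3.61% in kidneys 1, 2 and 3, and spleen values were 2.66%, 2.74% and 2.62%, with kidneys 1 and 3 above and kidney 2 below. Trbj1-4 made up 5.69%, 4.81% and 8.51% in kidneys 1, 2 and 3, against 7.15%, 7.06% and 6.73% in the spleens, with kidneys 1 and 2 below and kidney 3 above. The values of Trbj1-3 and Trbj1-5 turned in part on single large clonotypes. Without its largest clonotype, Trbj1-5 fell to 4.12% in kidney 1, and Trbj1-3 fell to 6.79% in kidney 2, still above the spleens in both cases. Without mouse 2, the log2 fold change of Trbj1-3 was -0.83 by UMIs.

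The Trbj1 clonotypes with the most UMIs in each kidney are shown because single clonotypes of this size move the shares above. The capitals mark the bases that come from the J gene. The last places in kidneys 1 and 2 were tied and are left out.
Kidney 1, Trbv26 Trbj1-5, 20 UMIs: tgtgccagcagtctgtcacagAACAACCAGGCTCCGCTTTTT
Kidney 1, Trbv13-1 Trbj1-2, 8 UMIs: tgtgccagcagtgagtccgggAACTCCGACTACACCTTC
Kidney 2, Trbv15 Trbj1-3, 40 UMIs: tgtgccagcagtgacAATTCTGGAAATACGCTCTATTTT
Kidney 2, Trbv4 Trbj1-1, 17 UMIs: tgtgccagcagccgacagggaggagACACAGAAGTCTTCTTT
Kidney 3, Trbv13-1 Trbj1-4, 6 UMIs: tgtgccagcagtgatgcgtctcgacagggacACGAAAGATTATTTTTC
Kidney 3, Trbv3 Trbj1-4, 5 UMIs: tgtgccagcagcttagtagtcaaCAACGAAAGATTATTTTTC
Kidney 3, Trbv13-2 Trbj1-5, 5 UMIs: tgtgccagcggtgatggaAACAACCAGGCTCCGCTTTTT
The Trbv15 Trbj1-3 clonotype was the largest, with 3.21% of the UMIs of kidney 2 (exact 95% interval 2.30 to 4.34, counting error only). Its Trbj1-3 end was untrimmed, and its capitals start with P bases that mirror the gene's own end. The Trbv26 Trbj1-5 clonotype held 2.59% of the UMIs of kidney 1 (exact 95% interval 1.59 to 3.97). All 7 clonotypes recurred in the spleen of their own mouse, with 11 to 202 UMIs there. The Trbv4 Trbj1-1 clonotype was the largest of them in a spleen, with 0.0899% of the UMIs of spleen 2.

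A related question was how many kidney clonotypes of each cluster recurred in the spleen of the same mouse. For Trbj1 clonotypes the share was 40.6%, 47.4% and 43.6% in mice 1, 2 and 3, and for Trbj2 clonotypes 52.4%, 52.7% and 43.2%. Trbj1 lay below Trbj2 in mice 1 and 2 and slightly above it in mouse 3. The mean difference was -5.56 percentage points ± 6.10 (SD, n = 3 mice, exact sign-flip permutation test, p = 0.5, smallest possible 0.25). Among the single genes the share in a kidney ranged from 25.0% (6 of 24, Trbj1-3 in kidney 1) to 59.1% (13 of 22, Trbj1-6 in kidney 3), with exact 95% intervals of 9.77 to 46.7 and 36.4 to 79.3.

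Non-coding clonotypes were then set against coding clonotypes of the same spleen. Trbj1-6 and Trbj1-2 were more frequent and Trbj1-1 was less frequent among the non-coding clonotypes. Trbj1-6 made up 3.38%, 3.37% and 3.04% of the coding and 5.06%, 4.32% and 4.79% of the non-coding clonotypes of spleens 1, 2 and 3, and the 2 sets of values did not overlap. Its log2 fold change was 0.51 ± 0.09 (SE, edgeR quasi-likelihood test, adjusted p = 2.41e-05). Trbj1-2 rose from 5.37%, 5.57% and 4.99% to 6.55%, 6.94% and 6.36%, again without overlap (log2 fold change 0.31 ± 0.04, SE, edgeR, adjusted p = 2.95e-07). Trbj1-1 fell from 10.3%, 10.4% and 9.93% to 8.70%, 8.71% and 8.02% (log2 fold change -0.26 ± 0.03, SE, edgeR, adjusted p = 1.68e-08).

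The other Trbj1 genes did not pass the test. The mean shares of the coding and non-coding clonotypes were 5.56% and 5.39% for Trbj1-3, 7.17% and 7.10% for Trbj1-4, and 2.86% and 3.25% for Trbj1-5. The values of Trbj1-5 did not overlap either, with 2.81%, 3.01% and 2.75% of the coding and 3.53%, 3.08% and 3.15% of the non-coding clonotypes of spleens 1, 2 and 3 (log2 fold change 0.17 ± 0.13, SE, edgeR, adjusted p = 0.291). The 3 Trbj1 genes called are read against a background of 58.3%, or 7 of the 12 Trbj genes, so that being called was not particular to the Trbj1 cluster. The whole cluster made up 34.4% ± 1.28 (SD, n = 3) of the coding and 35.6% ± 1.37 of the non-coding clonotypes. Trbj1-5 was also called when mouse 2 was left out, with a log2 fold change of 0.28, and by DESeq2, with 0.18. Non-coding clones with a stop codon gave 0 calls among Trbj1 genes, but they numbered only 189 to 364 per spleen.

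Out-of-frame clones can also arise when a base of a coding clone is inserted or lost during amplification or sequencing. Of the out-of-frame clonotypes 8.75%, 10.9% and 6.45% in spleens 1, 2 and 3 were 1 inserted or deleted base away from a coding clonotype of the same V and J gene and library. Without them, the same number of Trbj1 genes, 3, was called. In the kidneys the non-coding clonotypes numbered 29, 49 and 35, and 15, 20 and 11 of them used a Trbj1 gene, too few for a test.

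**Figure D2:**
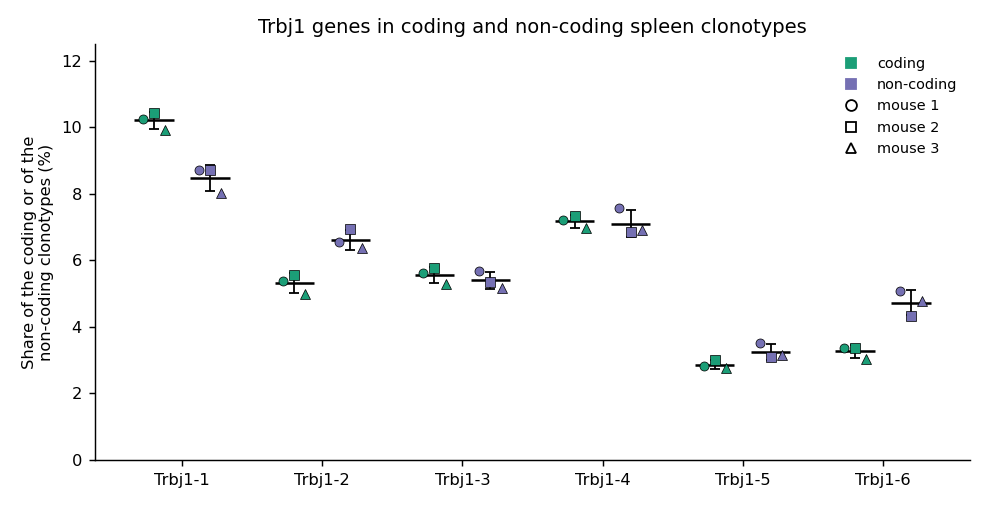
Share of each Trbj1 gene among the coding and among the non-coding clonotypes of the 3 spleens, in percent. Each symbol is 1 spleen, horizontal lines are means and error bars are SD (n = 3). The coding and non-coding values are separate for Trbj1-1, Trbj1-2, Trbj1-5 and Trbj1-6 and overlap for Trbj1-3 and Trbj1-4.

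Trbv pairing of the Trbj1 cluster was not uniform. In the spleen the share of a Trbv gene's coding clonotypes that used a Trbj1 gene ranged from 23.4% ± 2.04 (SD, n = 3) for Trbv30 to 40.4% ± 1.29 for Trbv26. When Trbj1 clonotypes were tested against Trbj2 clonotypes, 15 of 23 Trbv genes (65.2%) were called, 5 higher (21.7%) and 10 lower (43.5%) in Trbj1. Trbv26 had Trbj1 shares of 39.9%, 41.9% and 39.5% in spleens 1, 2 and 3 (log2 fold change of Trbj1 over Trbj2 clonotypes 0.37 ± 0.04, SE, edgeR, adjusted p = 2.49e-11). Trbv31, the V gene that lies downstream of the constant genes and joins by inversion, had 38.8%, 38.6% and 36.7% (log2 fold change 0.23). The other higher genes were Trbv1 (0.20), Trbv13-3 (0.13) and Trbv19 (0.12).

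The lowest Trbj1 shares belonged to Trbv30, Trbv17, Trbv12-2, Trbv14 and Trbv3. Trbv17 had 25.0%, 26.2% and 20.5% (log2 fold change -0.71 ± 0.06, SE, edgeR, adjusted p = 2.37e-15), and Trbv30, with 802 clonotypes over the 3 spleens, had 23.4%, 25.4% and 21.3% (log2 fold change -0.76 ± 0.09, SE, edgeR, adjusted p = 3.53e-10). The call of Trbv30 was lost at a minimum of 2 UMIs per clonotype (adjusted p = 0.0735 by edgeR). Trbv12-2 (-0.67), Trbv14 (-0.50) and Trbv3 (-0.39) followed. The Spearman correlation of position in the locus with the log2 fold change was -0.007 over 22 Trbv genes, a description over genes that share libraries, with the inverted Trbv31 left out.

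The single Trbj1 genes had partners of their own. Of 276 pairs of a Trbv and a Trbj gene, 163 (59.1%) were called, 80 higher (29%) and 83 lower (30.1%), when the clonotypes of a Trbj gene were set against those of all other Trbj genes. Among the 138 pairs with a Trbj1 gene 88 were called, 38 higher and 50 lower, against 75 of 138 with a Trbj2 gene, 42 higher and 33 lower. The median size of the log2 fold change over all pairs, called or not, was 0.29 for Trbj1 and 0.16 for Trbj2 genes. Trbj1-5 and Trbj1-6, with the fewest coding clonotypes, had the largest medians of the cluster (0.44 and 0.46). The part of counting error in these medians was not tested. Per gene, the calls ranged from 13 of 23 Trbv genes for Trbj1-3 and Trbj1-4 to 17 of 23 for Trbj1-6, which also had the largest median size, 0.46.

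**Figure D3:**
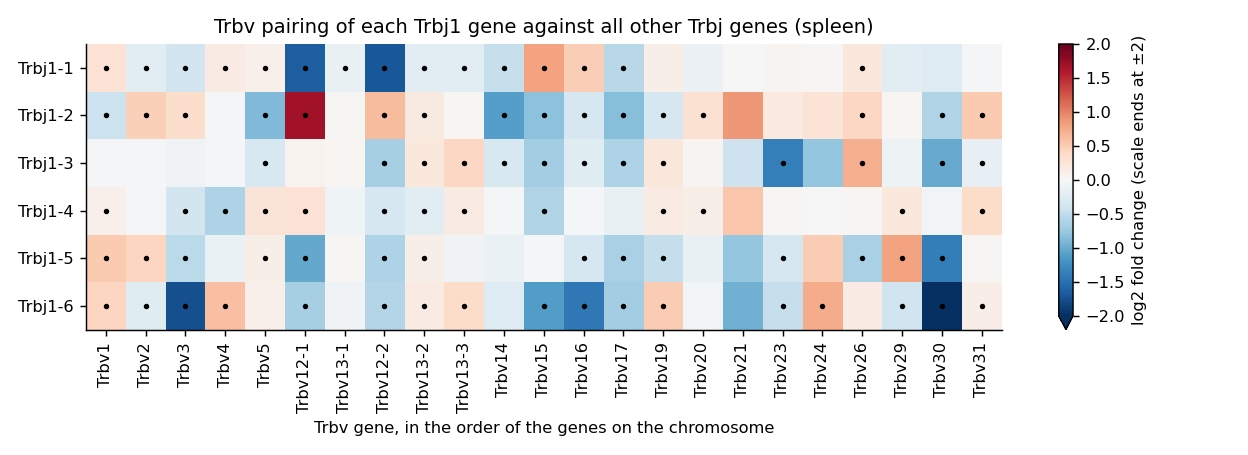
Log2 fold change of the share of each Trbv gene among the coding spleen clonotypes of a Trbj1 gene over its share among those of all other Trbj genes (colour, red higher and blue lower). Black dots mark pairs with an adjusted p under 0.05, and the colour scale ends at 2 in either direction, beyond which only Trbv30 with Trbj1-6 (-2.76) lies.

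The strongest pairing was that of Trbj1-2 with Trbv12-1. Trbj1-2 was used by 15.1%, 15.1% and 15.8% of the coding Trbv12-1 clonotypes of spleens 1, 2 and 3, against a mean of 5.31% over all Trbv genes (log2 fold change 1.67 ± 0.11, SE, edgeR, adjusted p = 1.19e-17). With Trbv14 it was used by 2.35%, 2.64% and 2.76% (log2 fold change -1.10). Trbj1-1 paired most with Trbv15, in 16.6%, 16.7% and 16.8% of its clonotypes against 10.2% over all Trbv genes (log2 fold change 0.81 ± 0.04, SE, edgeR, adjusted p = 2.04e-06). It paired least with Trbv12-2, in 3.81%, 3.34% and 3.01% (log2 fold change -1.69). The closely related Trbv12-1 and Trbv12-2 thus were both low in Trbj1-1, with log2 fold changes of -1.65 and -1.69, and both high in Trbj1-2, with 1.67 and 0.63.

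The pairing of Trbj1-3 was highest with Trbv26, in 9.55%, 9.35% and 7.32% of its clonotypes against 5.56% over all (log2 fold change 0.73), and lowest with Trbv23, in 2.54%, 1.98% and 2.25% (log2 fold change -1.37). Trbj1-4 had the smallest spread, from 0.36 with Trbv31 to -0.61 with Trbv4 among the pairs called. Trbj1-5 was highest with Trbv29, in 4.92%, 5.09% and 4.55% against 2.86% over all (log2 fold change 0.80). Trbj1-6 was highest with Trbv24 (0.74 ± 0.25, SE, edgeR, adjusted p = 0.0179). Both genes were lowest with Trbv30, where 9 of 802 clonotypes used Trbj1-5 and 4 of 802 used Trbj1-6 (log2 fold changes -1.39 and -2.76), and the value for Trbj1-6 falls to 0 clonotypes in spleen 3. The calls on these few clonotypes, and that of Trbv24 with Trbj1-6 (32 clonotypes), were lost in several alternatives, without mouse 2 among them. At most 1.08% of the clonotypes of a Trbv gene had more than 1 V gene assigned.

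The Trbv profiles of the Trbj1 genes were compared with those of every other Trbj gene, as log2 ratios of observed to independent pairing over 23 Trbv genes. Trbj1-5 and Trbj1-6 were most like each other (Pearson r = 0.57), and Trbj1-3 was most like Trbj1-6 (r = 0.45). Trbj1-2 and Trbj1-4 were each other's nearest at r = 0.26. Trbj1-1 was nearest to a gene of the other cluster, Trbj2-4 (r = 0.45). These are descriptions over Trbv genes of the same 3 spleens and carry no test.

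The pairing was also examined in out-of-frame clonotypes of the 3 spleens, a comparison added after the data were seen. The pairing in out-of-frame clonotypes differed from that in coding clonotypes for 34 of 264 pairs (12.9%), 22 higher (8.33%) and 12 lower (4.55%) in the out-of-frame clonotypes. With a Trbj1 gene there were 23 of 132, and in 22 of these the out-of-frame pairing was shifted against the direction of the coding pairing. The coding values enter both quantities, so this count is no separate evidence. Leaving out mouse 1, 2 or 3 lowered the 23 calls to 12, 7 and 12.

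The named pairs show the size of the shift. Trbj1-2 was used by 5.68%, 7.68% and 7.54% of the out-of-frame Trbv12-1 clonotypes, less than in the coding ones above and near the out-of-frame mean of 6.65% over all Trbv genes (difference in log2 -1.62 ± 0.17, SE, edgeR, adjusted p = 2.01e-09). Trbj1-1 was used by 6.59%, 10.1% and 7.77% of the out-of-frame Trbv15 clonotypes, against an out-of-frame mean of 8.40% (difference -0.83, adjusted p = 0.00886 by edgeR, lost without mouse 1 or 3). With Trbv12-2 it was used by 6.54%, 8.07% and 10.7%, again around that mean (difference 1.64, adjusted p = 0.00538 by edgeR, lost without mouse 2). The largest shift upward was that of Trbj1-6 with Trbv3, from 1.09%, 0.922% and 1.00% of the coding to 6.51%, 4.38% and 5.56% of the out-of-frame clonotypes (difference 1.95 ± 0.23, SE, edgeR, adjusted p = 2.05e-07).

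The difference was called for 21 of the 84 called coding Trbj1 pairs that were tested for it. The pairs not called were not thereby shown to be alike in both classes. The pairs below lay on the same side of the mean in both classes, and the number of such pairs was not counted. Trbv31 with Trbj1-4 was used in 9.02% ± 0.415 (SD, n = 3) of the coding and 8.68% ± 0.547 of the out-of-frame clonotypes, above the mean of 7.17% over all Trbv genes in either class. The difference was -0.06 ± 0.15 (SE, edgeR, adjusted p = 0.919). Trbv14 with Trbj1-2 was low in both classes, with 9 of 383 out-of-frame clonotypes. Trbv1 with Trbj1-5 was the pair whose out-of-frame shift went the same way as its coding pairing, with 4.02% of the coding and 6.74% of the out-of-frame clonotypes (difference 0.61, adjusted p = 0.00538 by edgeR).

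**Figure D4:**
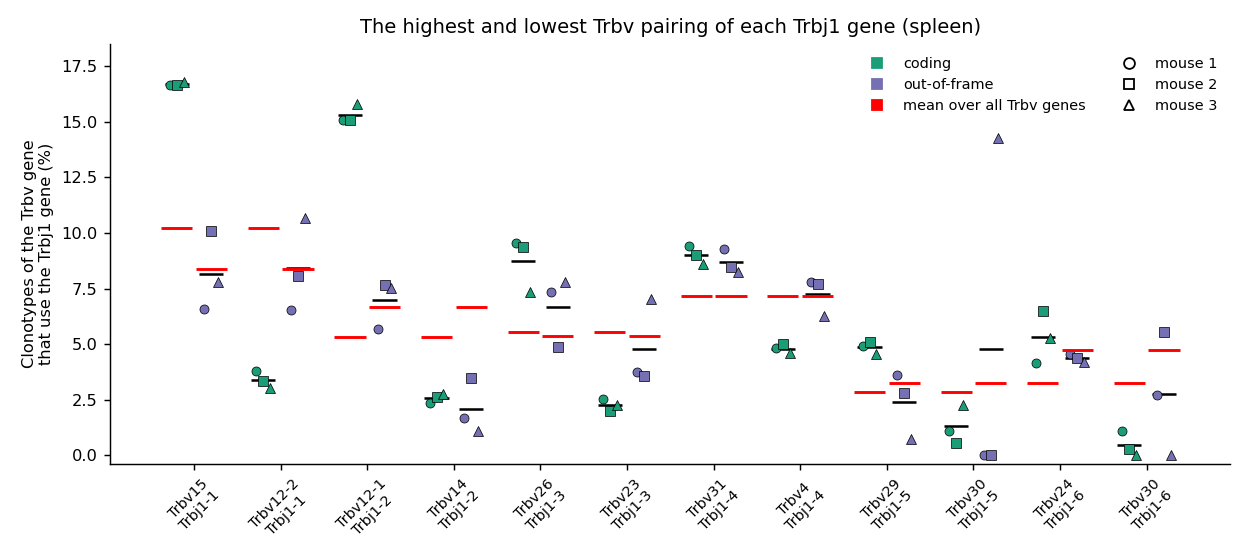
Percent of the coding and of the out-of-frame clonotypes of a Trbv gene that use the Trbj1 gene named below it, for the highest and the lowest pair of each Trbj1 gene. Each symbol is 1 spleen, black lines are means of the 3 spleens and red lines the mean over all Trbv genes in that class. Coding values of Trbv12-1 with Trbj1-2 lie at 15.1% to 15.8% and out-of-frame values at 5.68% to 7.68%, and the out-of-frame values of Trbv30 rest on 69 clonotypes.

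The mean CDR3 length of Trbj1 clonotypes was 13.8, 13.9 and 13.8 amino acids in the kidneys and 13.8 in each of the 3 spleens, a difference of 0.044 amino acids ± 0.033 (SE, n = 3 per organ, exact permutation test, p = 0.4). In the spleen, Trbj1 clonotypes were shorter than Trbj2 clonotypes in all 3 mice, by 0.134 amino acids ± 0.00425 (SD, n = 3, exact sign-flip permutation test, p = 0.25, which 3 pairs cannot go below). Within the cluster the mean length in the spleen rose from 13.3 amino acids for Trbj1-1 and 13.5 for Trbj1-2 to 13.7 for Trbj1-5, 14.1 for Trbj1-4, 14.1 for Trbj1-6 and 14.2 for Trbj1-3. Trbj1-6 brings the most germline bases of the cluster but was not the longest.

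Trimming differed between the genes. In coding spleen clonotypes the mean number of J bases removed was 1.37 for Trbj1-3, 1.80 for Trbj1-2, 2.68 for Trbj1-1, 3.13 for Trbj1-5, 3.19 for Trbj1-4 and 4.49 for Trbj1-6, and the 3 spleens lay within 0.1 of each other for every gene. No base was missing in 54.1% of Trbj1-3 clonotypes but in only 17.8% of Trbj1-6 clonotypes. P bases were present in 30.4% of Trbj1-3 clonotypes and in 9.51% of Trbj1-6 clonotypes. Trbj1-6 was cut by exactly 7 bases in 20.8% ± 0.434 (SD, n = 3) of its clonotypes, more often than at any other length, which removes the first 7 letters of the sequence shown above. Trbj1-2 lost 7 or more bases in 1.02% of clonotypes and Trbj1-6 in 32.9%.

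Over the whole cluster, non-coding clonotypes lost 2.60 and coding clonotypes 2.65 J bases on average (difference -0.052 ± 0.108, SD, n = 3, exact sign-flip permutation test, p = 0.5). Trbj1-6 was the gene with the largest difference between out-of-frame and coding clonotypes. It lost 4.52, 4.49 and 4.47 bases in the coding and 4.00, 3.82 and 3.59 bases in the out-of-frame clonotypes of spleens 1, 2 and 3, a difference of -0.69 bases ± 0.178 (SD, n = 3, exact sign-flip permutation test, p = 0.25). Removal of 7 or more bases was seen in 32.9% of its coding and 24.4% of its out-of-frame clonotypes. Trbj1-1 went the other way, with 2.68 bases in the coding and 3.00 in the out-of-frame clonotypes, a difference of 0.32 bases with the same sign in all 3 spleens. The CDR3 of out-of-frame Trbj1 clonotypes was longer than that of coding ones by 0.384 amino acids ± 0.067 (SD, n = 3, exact sign-flip permutation test, p = 0.25), counted as bases divided by codon length.

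**Figure D5:**
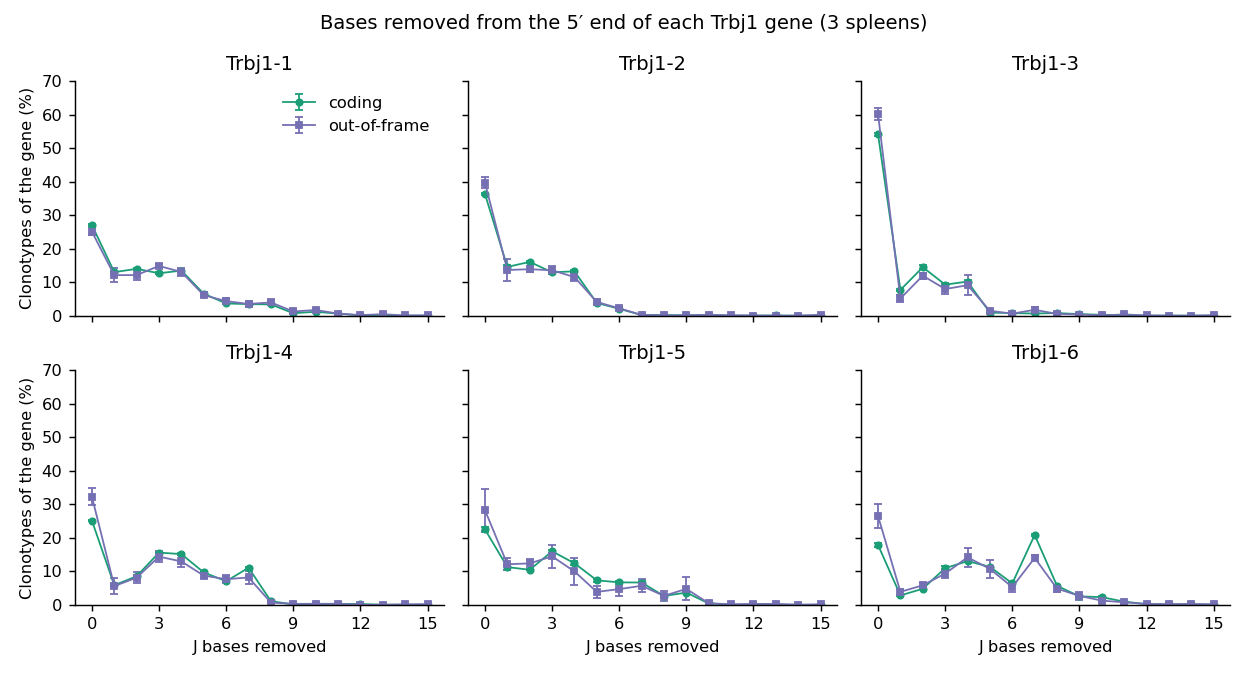
Percent of the clonotypes of each Trbj1 gene that lost a given number of J bases, for coding and out-of-frame clonotypes of the 3 spleens. Points are means and error bars are SD (n = 3). Trbj1-3 was untrimmed in 54.1% of its coding clonotypes, and Trbj1-6 has a second peak at 7 bases with 20.8%.

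A single D gene was assigned to 18840 of 38073, 24986 of 49816 and 12815 of 25742 coding Trbj1 clonotypes in spleens 1, 2 and 3. Among these clonotypes the assigned gene was Trbd1, the D gene of the upstream cluster, in 92.4%, 92.1% and 92.1%. Among the Trbj2 clonotypes with a single D gene the assigned gene was Trbd1 in 40.0%, 40.8% and 39.8%. Trbd2 lies downstream of the Trbj1 genes, and the accuracy of the D gene assignments was not tested. The sets of values did not overlap, and among the 6 genes the mean Trbd1 share ran from 90.5% for Trbj1-3 to 94.3% for Trbj1-5. The kidneys gave 91.0%, 94.0% and 97.3% for Trbj1. No D gene could be assigned to 35.5% of the Trbj1 and 24.4% of the Trbj2 clonotypes of the spleen, and Trbj1-3 had the highest such share of the cluster, 41.7%. The stretch between V and J was on average 8.05 bases in Trbj1 and 9.36 bases in Trbj2 clonotypes.

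Sharing between mice was counted for both clusters. Of the coding Trbj1 clonotypes of spleens 1, 2 and 3, 8.42%, 7.13% and 9.84% were found in at least 1 other spleen, against 7.33%, 6.31% and 8.49% of the Trbj2 clonotypes. The difference was 1.08 percentage points ± 0.271 (SD, n = 3, exact sign-flip permutation test, p = 0.25, higher in all 3 spleens), and the libraries counted in each mouse are shared between the 3 values. Trbj1-3 clonotypes were shared most, in 10.9% ± 1.71 (SD, n = 3), and Trbj1-5 clonotypes least, in 4.77% ± 0.834. The order of the genes was the same in all 3 spleens at both ends. In all 3 spleens together 1452 coding clonotypes recurred, and 549 of them (37.8%) used a Trbj1 gene. Among all coding clonotypes of a spleen the Trbj1 share was 34.4% on average, with a range of 33.0% to 35.5%.

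For each Trbj1 gene, the clonotype present in all 3 spleens with the most UMIs is shown as an example of a sequence found in each spleen library. The capitals again mark the bases from the J gene.
Trbv1 Trbj1-1: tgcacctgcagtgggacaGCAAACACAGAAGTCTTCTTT
Trbv1 Trbj1-2: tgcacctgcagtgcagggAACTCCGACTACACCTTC
Trbv5 Trbj1-3: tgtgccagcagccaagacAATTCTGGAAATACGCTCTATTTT
Trbv4 Trbj1-4: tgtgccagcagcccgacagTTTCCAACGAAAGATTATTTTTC
Trbv1 Trbj1-5: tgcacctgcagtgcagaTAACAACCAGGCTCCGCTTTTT
Trbv13-2 Trbj1-6: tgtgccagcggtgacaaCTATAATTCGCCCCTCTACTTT
These clonotypes held 14 UMIs (Trbj1-5) to 48 UMIs (Trbj1-3) over the 3 spleens, and that of Trbj1-5 held 1, 12 and 1 in spleens 1, 2 and 3. Of the 6 clonotypes, 4 kept the whole J end. The numbers of clonotypes found in all 3 spleens were 206 for Trbj1-1, 139 for Trbj1-3, 84 for Trbj1-2, 71 for Trbj1-4, 33 for Trbj1-6 and 16 for Trbj1-5.

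Finally, the use of Trbj1 genes was compared between large and small spleen clonotypes. At 10 UMIs or more for a large clonotype, 0 of 12 Trbj genes (0%) were called against clonotypes of 1 UMI by edgeR, 1 gene (Trbj1-3) had an unadjusted p under 0.05, and DESeq2 called 0. Only 61 to 424 clonotypes per spleen were that large. At 5 UMIs or more, 5 of 12 Trbj genes (41.7%) were called, 3 of them in the Trbj1 cluster. Trbj1-5 made up 2.97%, 3.24% and 2.89% of the clonotypes with 1 UMI and 1.87%, 1.85% and 1.88% of those with at least 5 UMIs (log2 fold change -0.74 ± 0.10, SE, edgeR, adjusted p = 7.53e-07). Trbj1-2 was lower as well (-0.41, adjusted p = 0.016 by edgeR), and Trbj1-3 was higher, with 5.65%, 5.85% and 5.35% against 6.77%, 7.42% and 7.04% (log2 fold change 0.32, edgeR, adjusted p = 0.0273).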

How the data were processed

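CD4+ T cell TCR-β libraries of 3 UUO kidneys and the 3 spleens of the same mice were analysed. By 5′ RACE with UMIs, TCR-β mRNA was amplified. The authors assembled clones with MiXCR and deposited counts of UMIs and of reads for each clone, without normalization. Per the file headers, the deposited files also hold each clone's fraction of UMIs and of reads and the lowest quality score of its CDR3. Neither the fractions nor the score were used. The submitters' processing notes name GRCm38 (mm10) and R 4.4.2. The samples of a group come from separate mice, and organs of a mouse are not independent. In the exact tests, p-values measure the spread between mice. Those of edgeR also rest on the numbers of clonotypes or UMIs, with the spread estimated over all features together. Very small edgeR p-values therefore do not measure the spread between 3 mice alone.

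Clones with the same V gene, J gene and CDR3 bases were merged. Coding clonotypes have neither a frameshift nor a stop codon, and bases removed from the J gene come from the deposited reference points. The GRCm38.p6 annotation gave gene positions. Every clone carried 1 J gene. C gene calls mostly named both constant genes and were not used.

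Feature counts were tested with edgeR's quasi-likelihood test on column totals with Benjamini-Hochberg adjustment over all features of a comparison and an adjusted p threshold of 0.05. Both columns of a spleen shared a block. Trbj genes needed 10 counts, also in the comparisons with non-coding and with large clonotypes, and Trbv genes 100 clonotypes. Each library gave 1 value in exact two-sided permutation tests. SE of fold changes were derived from the p-values. The named Trbv genes were the 5 highest and 5 lowest called with 1 direction in all 3 spleens, and the highest and lowest for each Trbj1 gene. The pairs given for out-of-frame clonotypes beyond these, Trbv3 with Trbj1-6 and Trbv1 with Trbj1-5, were chosen after their values were seen, as were Trbv12-1 with Trbj1-1 and Trbv12-2 with Trbj1-2. The clonotypes shown were chosen by UMIs. The members and lists were chosen with earlier results of these data known.

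The labels give 1 mouse for each kidney and spleen of the same number. Over 12 Trbj genes, the deviations of the 2 organs from their group means correlated at -0.28, 0.48 and 0.33 by UMIs and -0.63, -0.06 and 0.19 by clonotypes in mice 1, 2 and 3. The main comparisons of kidney with spleen do not use the pairing. Alternatives changed the mice included, the normalization, the tool, the filters, the minimum UMIs, the clonotype definition, the kinds of non-coding clones, and UMIs against clonotypes or reads.

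Software was R 4.3.3 (edgeR 4.0.16, DESeq2 1.42.0) and Python 3.11.15 (scipy 1.17.1, pandas 2.3.3, numpy 2.4.6, matplotlib 3.10.9). The edgeR fits were tried on simulated counts without added spread between mice, and the exact tests on small sets of made-up values. DESeq2 and TMM were not tried in this way. Exact intervals of shares cover counting error only, and those by UMIs take the UMIs of 1 clonotype as independent. Those of fold changes come from the SE of the fit, which also takes in spread between libraries, and a normal quantile.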

Additional observations from a re-analysis of the deposited data

Results flagged for a closer look

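In 2 Trbj1 genes, the difference in share between small and larger clonotypes had opposite signs in kidney and spleen, within counting error in the kidneys. The share of Trbj1-3 among clonotypes of at least 3 UMIs minus that among clonotypes of 1 UMI was negative in all 3 kidneys and positive in all 3 spleens, and the kidney value was 3.91 percentage points lower (-3.91). In spleen 1 the shares were almost equal, with 5.65% at 1 UMI and 5.66% at 3 UMIs or more. The share of Trbj1-5 showed the reverse, with a kidney minus spleen value of 3.22 percentage points. The difference was not tested in either case. Both patterns depended on the limit of 3 UMIs. At 5 UMIs or more, Trbj1-3 made up 15.4% in kidney 2 (4 of 26 clonotypes), above its 9.18% at 1 UMI, and at 10 UMIs or more 10.0% (1 of 10). Trbj1-5 kept its directions at 5 UMIs but at 10 UMIs was at 0 in kidneys 2 and 3 and at 4.92% in spleen 3, above the 2.89% at 1 UMI there. The larger kidney clonotypes numbered 53, 75 and 36, and kidneys 1 and 3 held 0 with Trbj1-3 among them. Those with Trbj1-5 numbered 4, 2 and 2 in kidneys 1, 2 and 3. For both genes and in each kidney, the exact 95% interval of the share at 3 UMIs or more held the share at 1 UMI.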

How the results depend on the processing

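The comparisons rest on 3 mice, and exact tests could not go below 0.1 or 0.25. Kidney values rest on 693 to 1248 UMIs. For the main comparisons, 98 alternative values were labelled the same, 4 reversed and 6 counts moved by over 1.5 times. For the exact tests, the same meant the same direction only, since their p could not fall under 0.05 in any setting. For counts of calls, it meant an equal count or one within 1.5 times. The difference in Trbj1 share of UMIs between kidney and spleen ran from -1.45 to 1.34 with a mouse left out and was -0.516 with reads, and that of clonotypes was -0.332 at a minimum of 2 UMIs, where the J bases removed in non-coding against coding clonotypes reversed to 0.125. With the mouse as a block, the differences were 0.051 for UMIs (p = 1.0), 0.199 for clonotypes (p = 0.25) and 0.044 amino acids for CDR3 length (p = 0.5, exact sign-flip tests), and 0 Trbj genes were called. The block gave log2 values of -0.028 for Trbj1-1 and -0.22 for Trbj1-3 by UMIs and changed no call. With a mouse left out, log2 values of kidney against spleen by UMIs ran from -0.16 to 0.088 for Trbj1-1, -0.83 to 0.27 for Trbj1-3, -0.45 to 0.018 for Trbj1-4 and -0.031 to 0.24 for Trbj1-6, and by clonotypes from -0.39 to 0.26 for Trbj1-3 and -0.15 to 0.55 for Trbj1-5. At 2 UMIs Trbj1-3 was -0.90 by clonotypes.

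For non-coding against coding clonotypes, stop codons alone gave 0 Trbj1 calls, with Trbj1-1 at 0.028 and Trbj1-3 at 0.15. Trbj1-4 ran from -0.071 to 0.039 with a mouse left out and was 0.00496 by UMIs. At 2 UMIs Trbj1-3 was 0.18, Trbj1-4 0.0092 and Trbj1-5 -0.041. A minimum of 2 UMIs lowered the 88 Trbj1 pairs called to 58. For large clonotypes, 5 UMIs as the limit gave 3 Trbj1 calls, with Trbj1-1 at -0.071, and DESeq2 gave Trbj1-1 -0.050. With a mouse left out, Trbj1-1 ran from -0.22 to 0.11 and Trbj1-4 from -0.24 to 0.14. The out-of-frame difference gave 7 to 12 Trbj1 calls with a mouse left out, and for Trbv31 with Trbj1-4 was 0.059 by DESeq2 and 0.0093 with TMM. Fewer samples or fewer clonotypes enter most of these fits, and the cause was otherwise not tested.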
